A study of Mus musculus with 22 samples.

Results

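The nuclear-encoded subunits of the mitochondrial respiratory chain and of the ATP synthase were followed in RNA from injured and uninjured mouse spinal cord. Members were taken by symbol from the deposited count tables: names beginning with Nduf and a subunit letter (complex I), Sdha to Sdhd (complex II), Uqcr genes and Cyc1 (complex III), Cox4 to Cox8 genes (complex IV) and Atp5 genes (complex V, the ATP synthase), without pseudogenes. This gave 85 of the 24060 rows, of which 37 belonged to complex I, 4 to complex II, 9 to complex III, 18 to complex IV and 17 to complex V. Ndufa4, now regarded as a subunit of complex IV, was counted with complex I by its symbol. Cox7a2l, a factor that joins complexes into supercomplexes, Atp5s and Atp5sl were kept although none of them is a core subunit.

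All mice were young adult females that carried RiboTag, a haemagglutinin (HA) tag on a ribosomal protein, switched on by Cre from the mouse Gfap promoter, so that the tag marks ribosomes of Gfap-lineage cells, chiefly astrocytes. HA immunoprecipitation (HA IP) recovered the RNA on tagged ribosomes, and the flow-through was the RNA of the same tissue that was not bound. STAT3-CKO SCI mice (n = 3) also carried a loxP-flanked Stat3, the gene of a transcription factor of cytokine signalling, and underwent a severe crush spinal cord injury (SCI) at thoracic level 10. WT SCI mice (n = 4) carried RiboTag alone and had the same injury, and the central 3 mm of the lesion was taken 14 days later from both. WT uninjured mice (n = 4) carried RiboTag and had no injury. Each of the 11 animals gave 1 HA IP and 1 flow-through library, 22 in all.

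The respiratory chain passes electrons from NADH (complex I) and succinate (complex II) through complex III and cytochrome c to oxygen at complex IV, and the proton gradient so formed drives ATP synthesis by complex V. Its subunits are encoded in 2 genomes; the mitochondrially encoded ones were not analysed here. Several complex IV subunits exist as tissue isoforms, such as those of heart and skeletal muscle. Astrocytes are known for a high rate of glycolysis beside oxidative metabolism, and reactive astrocytes form a border around a spinal cord lesion.

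The deposited libraries differed widely in usable depth. Total counts in HA IP were 31292491 to 37970557 in STAT3-CKO SCI, 31574207 to 46055612 in WT SCI and 37267334 to 59337089 in WT uninjured mice, but the ribosomal RNA precursor gene Rn45s took 52.2 to 89.2%, 89 to 96.2% and 12.6 to 26.7% of them in that order. Outside the rows Rn45s, Lars2 and Mir6236, which collect ribosomal reads, HA IP counts were 2496641 to 17348247 in STAT3-CKO SCI, 620265 to 2691494 in WT SCI and 26934866 to 51571785 in WT uninjured mice, and flow-through counts were 460759 to 4022328, 91626 to 615302 and 2858044 to 10140612 in the same order. STAT3-CKO animal 270 stood apart from the other injured animals by its low share of Rn45s, and WT SCI animal 9935 was the shallowest in both fractions. Stat3 itself lay at 7.85 to 12.3 CPM (counts scaled to a common library size) in HA IP of STAT3-CKO SCI against 26.3 to 66.2 CPM in WT SCI mice, with no overlap (log2 fold change -2.17 ± 0.34 SE, edgeR adjusted p = 0.00331). Of 10 astrocyte markers, tested against flow-through in each condition, 10 were higher in HA IP of STAT3-CKO SCI, 8 of WT SCI and 10 of WT uninjured mice. In HA IP of WT SCI mice, however, oligodendrocyte markers summed to 5877 to 8529 CPM and astrocyte markers to 3198 to 5566 CPM. HA IP is therefore not read here as RNA of astrocytes alone.

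In HA IP RNA, injury of WT mice went with lower levels of many members, most clearly those of the ATP synthase, while a few small complex I subunits were higher. Of 84 members tested in HA IP, 34 fell and 5 rose in WT SCI against WT uninjured mice (edgeR quasi-likelihood test, Benjamini-Hochberg adjusted p under 0.05 over all genes). Over all 14764 genes tested, 10.9% were lower and 15.8% higher. The median log2 fold change was -0.54 over the members and 0.00 over all genes. The remaining row, Cox8c, had no count in any HA IP library. Cox7b2 and Ndufs5, which fell, passed the filter on low counts only because of the uninjured libraries. Cox6a2, which rose, passed it only because of injured libraries. All levels given from here on are CPM on library sizes adjusted by the trimmed mean of M values (TMM), with a separate scale for each fraction, and errors of levels are SD.

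**Figure D1:**
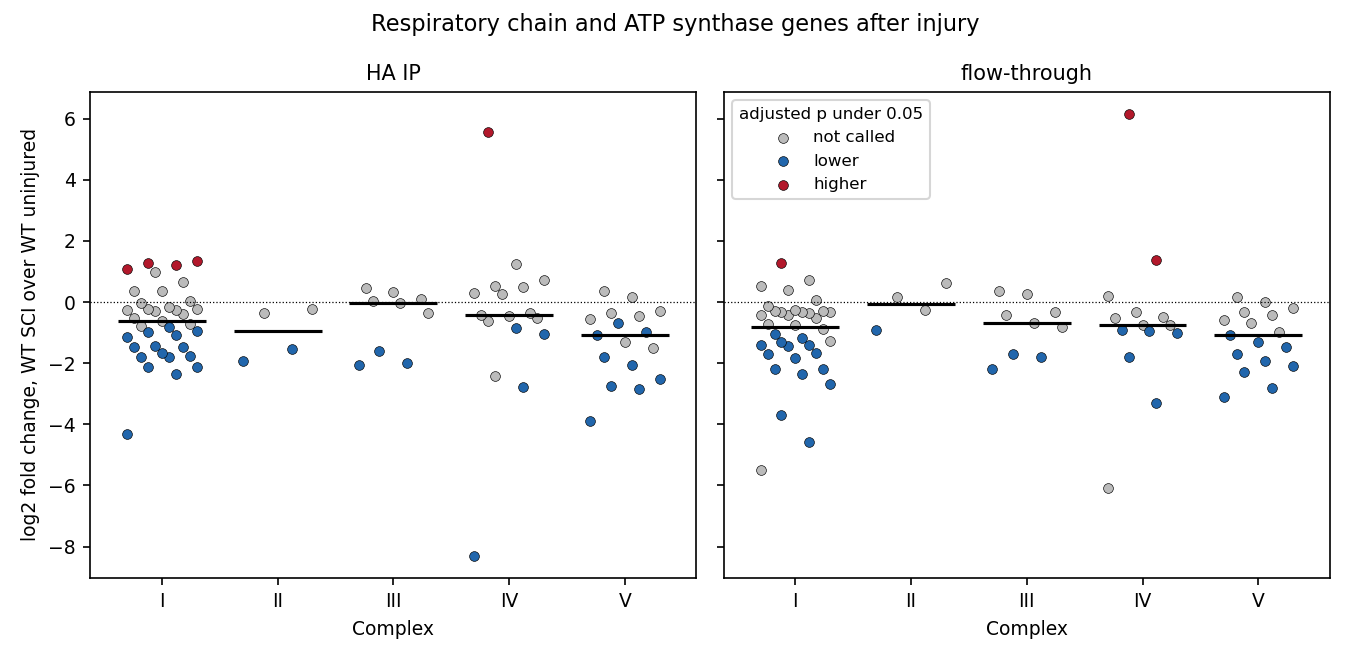
Log2 fold change of each member, WT SCI over WT uninjured (vertical axis), by complex (horizontal axis), in HA IP (left) and flow-through (right). Each point is a gene, coloured by its call at adjusted p under 0.05, and bars are medians; in complex V the medians were -1.09 in both fractions, and the points lowest in the plot are genes with almost no counts after injury, whose fitted values are no measure of size.

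The ATP synthase had the largest share of lower members: 9 of 17 fell, none rose, and the median log2 fold change was -1.09. Atp5b, the catalytic beta subunit, was measured at 139.5, 119.7, 47.9 and 65.8 CPM in WT SCI against 467.2, 579.6, 554.9 and 514.9 CPM in WT uninjured mice. Every WT SCI library lay below every uninjured one, and Atp5b fell by 2.51 on the log2 scale (SE 0.32, edgeR adjusted p = 1.3e-05). Atp5j, a subunit of the peripheral stalk, had 12.7, 13.0, 10.3 and 11.9 CPM in WT SCI against 61.5, 100.1, 102.1 and 78.2 CPM in WT uninjured mice, and fell by 2.84 (SE 0.29, edgeR adjusted p = 1.41e-06). Atp5c1, the gamma subunit of the central stalk, averaged 13.1 ± 3.52 CPM in WT SCI and 88.8 ± 10.9 CPM in WT uninjured mice. Atp5g1, one of 3 genes for the same mature membrane-ring protein, averaged 12.8 ± 4.95 CPM in WT SCI and 52.9 ± 9.05 CPM in WT uninjured mice. Atp5g3, the copy with the highest CPM, was not called (log2 fold change -0.55). The catalytic partner of the beta subunit, Atp5a1, was not called either, at 142.6 ± 35.3 CPM in WT SCI and 196.4 ± 33.9 CPM in WT uninjured mice (log2 fold change -0.46, edgeR adjusted p = 0.161). Atp5f1 (-1.81), Atp5l (-1.09), Atp5h (-0.97) and Atp5o (-0.70) complete the core subunits that fell, and Atp5s fell by 3.90 to 0.259 ± 0.329 CPM in WT SCI, against 4.82 ± 0.771 CPM in WT uninjured mice.

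For some of the members named here, the 150 bases before a RefSeq transcription start are printed (RefSeq, GRCm38.p6, which is mm10). They are the part nearest the start of the longer windows in which motifs are counted further on. Capitals mark the core motifs of factors known to bind promoters of respiratory genes, searched on both strands: NRF1 (GCATGCGC), ETS factors (CCGGAAG) and YY1 (AAGATGGC). Atp5j (chr16:84834977-84835126, minus strand, the inner of 2 listed starts) and Sdhd (chr9:50603850-50603999, minus strand) belong to members that fell. Ndufb7 (chr8:83566608-83566757, plus strand) rose, Ndufa11 (chr17:56717612-56717761, plus strand) differed between fractions, and Atp5b (chr10:128083157-128083306, plus strand) held none of the 3 motifs in this window. The 150 bases before the outer Atp5j start, not printed, held none either. Nor did those of Atp5c1, Cox7b and Sdha, which also fell, so the printed windows are no sample of the members.
Atp5j: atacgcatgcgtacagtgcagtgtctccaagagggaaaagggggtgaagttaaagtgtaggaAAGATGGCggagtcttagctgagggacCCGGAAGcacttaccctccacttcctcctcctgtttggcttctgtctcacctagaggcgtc
Sdhd: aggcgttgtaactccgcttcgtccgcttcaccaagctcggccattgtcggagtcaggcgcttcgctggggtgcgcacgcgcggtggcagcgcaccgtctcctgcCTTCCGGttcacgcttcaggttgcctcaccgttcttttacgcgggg
Atp5b: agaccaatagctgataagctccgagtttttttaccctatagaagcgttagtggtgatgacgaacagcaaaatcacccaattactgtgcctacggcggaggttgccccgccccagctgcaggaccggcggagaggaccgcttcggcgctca
Ndufb7: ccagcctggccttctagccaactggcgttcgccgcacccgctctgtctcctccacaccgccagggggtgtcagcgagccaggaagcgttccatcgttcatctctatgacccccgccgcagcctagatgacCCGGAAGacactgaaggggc
Ndufa11: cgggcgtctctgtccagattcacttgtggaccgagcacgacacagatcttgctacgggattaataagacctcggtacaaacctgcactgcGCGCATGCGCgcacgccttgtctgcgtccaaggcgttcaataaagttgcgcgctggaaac
The Atp5j window holds the YY1 core and then the ETS core without overlap. In Sdhd the ETS core is on the opposite strand, and in Ndufa11 the capitals are 2 overlapping NRF1 cores, one on each strand.

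Complex II, which oxidises succinate and also works in the citric acid cycle, split by subunit. Sdha, the flavoprotein, had 41.1, 36.8, 49.5 and 60.7 CPM in WT SCI against 115.5, 151.1, 155.2 and 128.9 CPM in WT uninjured mice, and fell by 1.55 (SE 0.24, edgeR adjusted p = 1.05e-04). Sdhd, a membrane anchor, averaged 8.34 ± 2.41 CPM in WT SCI and 32.0 ± 3.14 CPM in WT uninjured mice and fell by 1.93. The other anchor, Sdhc, and the iron-sulfur subunit Sdhb were not called, with log2 fold changes of -0.22 and -0.37. Libraries of the groups overlapped for both of them.

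In complex III, 3 of 9 members fell. Cyc1, cytochrome c1, had 15.97, 19.34, 10.99 and 11.73 CPM in WT SCI against 45.9, 66.8, 63.9 and 52.1 CPM in WT uninjured mice, without overlap (log2 fold change -1.98 ± 0.27 SE, edgeR adjusted p = 3.51e-05). Uqcrb fell by 2.06 and Uqcrc2, a core protein, by 1.59. The hinge protein gene Uqcrh averaged 108.8 ± 4.92 CPM in WT SCI and 86.6 ± 22.8 CPM in WT uninjured mice and was not called, and the Rieske iron-sulfur protein gene Uqcrfs1 was at 50.8 ± 15.9 CPM in WT SCI and 49.7 ± 13.3 CPM in WT uninjured mice (log2 fold change 0.03, edgeR adjusted p = 0.96). The median of the complex was -0.02.

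Complex IV held the widest range. Cox7b, a small structural subunit, had 6.84, 8.71, 12.7 and 6.65 CPM in WT SCI against 44.7, 68.6, 70.5 and 59.0 CPM in WT uninjured mice, and fell by 2.80 (SE 0.36, edgeR adjusted p = 1.54e-05). Cox5b and Cox7a2 fell by 1.05 and 0.86, each with overlapping libraries, whereas Cox4i1, the common isoform of the largest nuclear subunit, averaged 191.4 ± 24.9 CPM in WT SCI and 160.8 ± 42.7 CPM in WT uninjured mice and was not called. Cox7b2 had no count in any WT SCI library against a mean of 0.367 CPM in WT uninjured mice, at least 3.94-fold lower with a floor of 3 counts over the group. It entered the test only because of the uninjured libraries. Cox6a2, the isoform of heart and skeletal muscle, rose: its counts were 0, 19, 23 and 7 in WT SCI against 5, 9, 9 and 7 in the far deeper WT uninjured libraries, or 1.66 ± 1.82 CPM and 0.0353 ± 0.0189 CPM (log2 fold change 5.57 ± 1.04 SE, edgeR adjusted p = 6.35e-04). The 6 muscle markers summed to 0.326 to 3.62 CPM in HA IP of WT SCI and 0.266 to 0.477 CPM of WT uninjured mice, with Myh4 at 0 in WT SCI; their part in the Cox6a2 result was not tested.

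Complex I moved in both directions: 16 of 37 members fell and 4 rose, with a median of -0.62. Ndufb7, an accessory subunit, had 49.2, 52.8, 45.2 and 53.0 CPM in WT SCI against 13.1, 25.9, 25.8 and 17.3 CPM in WT uninjured mice, and rose by 1.29 (SE 0.34, edgeR adjusted p = 0.00947). Ndufa2, another accessory subunit, had 77.9, 68.2, 41.2 and 62.3 CPM in WT SCI against 17.3, 33.5, 32.8 and 23.8 CPM in WT uninjured mice, also without overlap (log2 fold change 1.21 ± 0.33 SE, edgeR adjusted p = 0.0104). Ndufa3 (1.09) and Ndufa5 (1.33) rose as well; like the further subunits named here to account for every call, they were singled out after their values were seen. Uninjured animal 42 was the lowest of its group for all 4 of these genes, and without it Ndufa3 and Ndufa5 were no longer called, while Ndufb7 and Ndufa2 were. Its low values were not confined to these genes. All members together took 1.995% of its HA IP counts outside the ribosomal rows, against 2.386 to 2.875% in the other uninjured animals. Ndufa5 was also lost without uninjured animal 154 or WT SCI animal 9935. Among those that fell were the iron-sulfur subunits Ndufs8 (-2.36) and Ndufs1 (-0.94), the NADH-binding subunit Ndufv1 (-1.43), and Ndufa10 (-2.14), Ndufb6 (-2.12), Ndufa4 (-1.81), Ndufb4 (-1.81), Ndufv3 (-1.76), Ndufa9 (-1.67), Ndufc1 and Ndufb2 (-1.48 each), Ndufc2 (-1.16), Ndufb5 (-1.08), Ndufa12 (-0.99) and Ndufa13 (-0.81). Ndufs5 had counts of 0, 0, 0 and 1 in WT SCI libraries. The core subunit Ndufs7 was not called (log2 fold change 0.99, edgeR adjusted p = 0.0685).

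Most calls in this comparison held whichever library was left out, but 12 of 39 did not. Over all genes, 2680 to 2811 were called without an uninjured animal and 3909 to 4187 without a WT SCI animal, against 3938 in the full fit. Cox5b was lost without uninjured animal 79, Cox7b2 without WT SCI animal 9596, Ndufa3 without uninjured animal 42, and Atp5h without uninjured animal 79 or 65. Ndufb4 was lost without 79, 65 or 154, and Ndufs1 and Atp5l without any of these or WT SCI animal 9874. Cox7a2 was lost without any of these 4 or 9843, and Ndufa13 without 79, 65, 154, 9935 or 9843. Atp5o was lost without 79, 65, 154, 9935, 9843 or 9596, and Ndufa12 without 42, 79, 65, 154, 9843 or 9596.

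**Figure D2:**
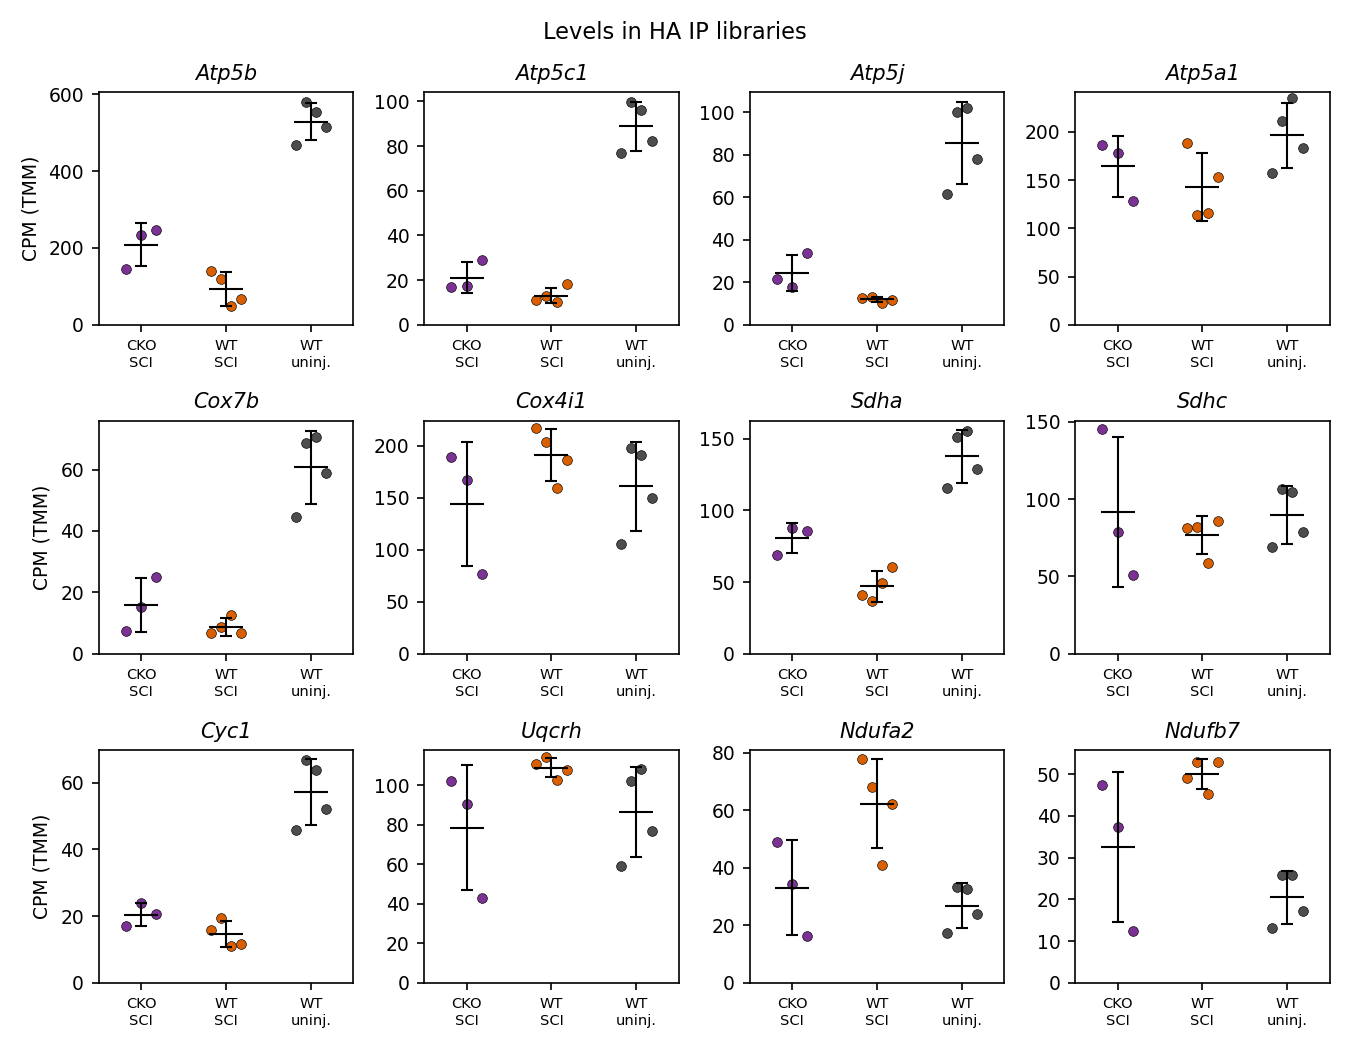
Levels of 12 members in HA IP in CPM on a linear axis from 0, each with its own scale; points are libraries, the long line is the mean and the bar 1 SD, for STAT3-CKO SCI (n = 3), WT SCI (n = 4) and WT uninjured (n = 4) mice. Atp5b, Atp5c1, Atp5j, Cox7b, Sdha and Cyc1 were lower in every injured library than in every uninjured one, whereas Atp5a1, Cox4i1, Sdhc and Uqcrh overlapped.

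Summed over its members, complex V stood at 478.5 to 762.2 CPM in HA IP of WT SCI against 1189 to 1697 CPM of WT uninjured mice, and complex II at 133.6 to 171.3 CPM against 230.9 to 321.2 CPM. Neither pair of ranges overlapped. The sums of complexes I, III and IV did overlap, at 623 to 922.8, 309.7 to 487.5 and 554 to 841 CPM in WT SCI against 759 to 1212, 311.5 to 533.3 and 553.8 to 959.4 CPM in WT uninjured mice. These sums are a description, with no test. In tissue lysates, fewer cells of a type and less RNA per cell cannot be told apart.

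**Figure D3:**
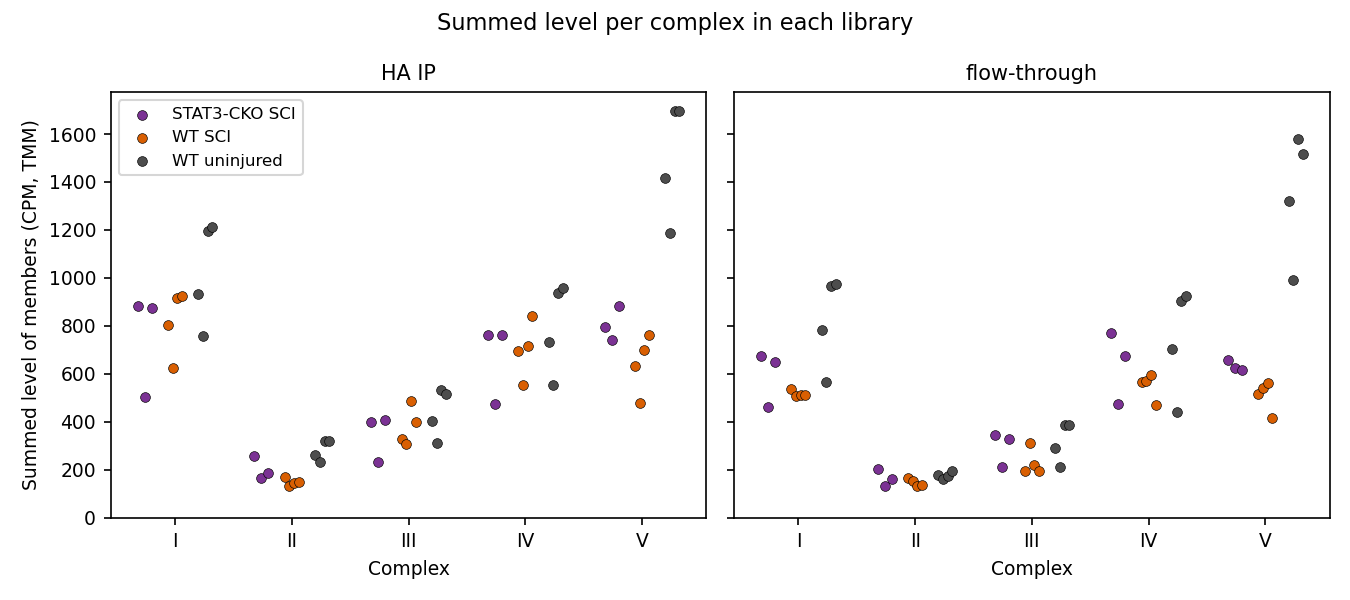
Summed level of the members of each complex (vertical axis, CPM, linear from 0) in every library of HA IP (left) and flow-through (right), for STAT3-CKO SCI, WT SCI and WT uninjured mice. Complex V was at most 883.3 CPM in all 7 injured HA IP libraries and at or above 1189 CPM in the 4 uninjured ones.

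Other genes of energy metabolism were read in the same HA IP comparison. Of the citric acid cycle genes 8 of 13 fell and none rose (median log2 fold change -1.08), among them Idh3b (-1.87) and Idh3a (-1.56), subunits of isocitrate dehydrogenase. Of cytochrome c, the carriers and the porins, 5 of 10 fell: Slc25a4 and Slc25a5, which exchange ADP for ATP across the inner membrane, averaged 52.5 ± 19.7 and 31.8 ± 6.94 CPM in WT SCI against 208.7 ± 32.7 and 119.6 ± 29.1 CPM in WT uninjured mice, and Cycs, cytochrome c itself, fell by 2.60. In the pyruvate dehydrogenase list 4 of 11 fell, Dlat by 1.91 and the pyruvate carrier Mpc1 by 1.83. Glycolysis genes went both ways, with 7 of 19 lower and 2 higher: Gapdh fell by 2.38 and Pgk1 by 2.13, while Hk2, a hexokinase, rose by 4.91 to 7.32 ± 2.10 CPM in WT SCI against 0.246 ± 0.103 CPM in WT uninjured mice. The lactate exporter Slc16a3 rose by 4.05.

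Genes that build the chain and its mitochondria were counted in the same way. Of assembly factors 3 of 42 fell and 1 rose (median -0.43), the complex IV factor Cox16 at -2.46 and the complex III factor Uqcc2 at 1.62. Mitochondrial ribosomal proteins had 15 of 77 lower and 5 higher (median -0.61), with Mrpl50 at -3.02 and Mrps9 at 1.73. Among 15 regulators of mitochondrial biogenesis, Ppargc1a, the coactivator known to drive it, fell by 2.92 (3.19 ± 2.62 CPM in WT SCI against 26.3 ± 4.36 CPM in WT uninjured mice), and its relative Pprc1 rose by 1.70. Of 10 mitophagy and dynamics genes Fundc1 and Dnm1l fell, by 1.28 and 1.30. Cytosolic ribosomal proteins had 33 of 88 higher and 8 lower (median 0.46), with Rps12 at 3.17 and Rpl36 at -2.30. Whether these lists differ from the members was not tested.

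**Figure D4:**
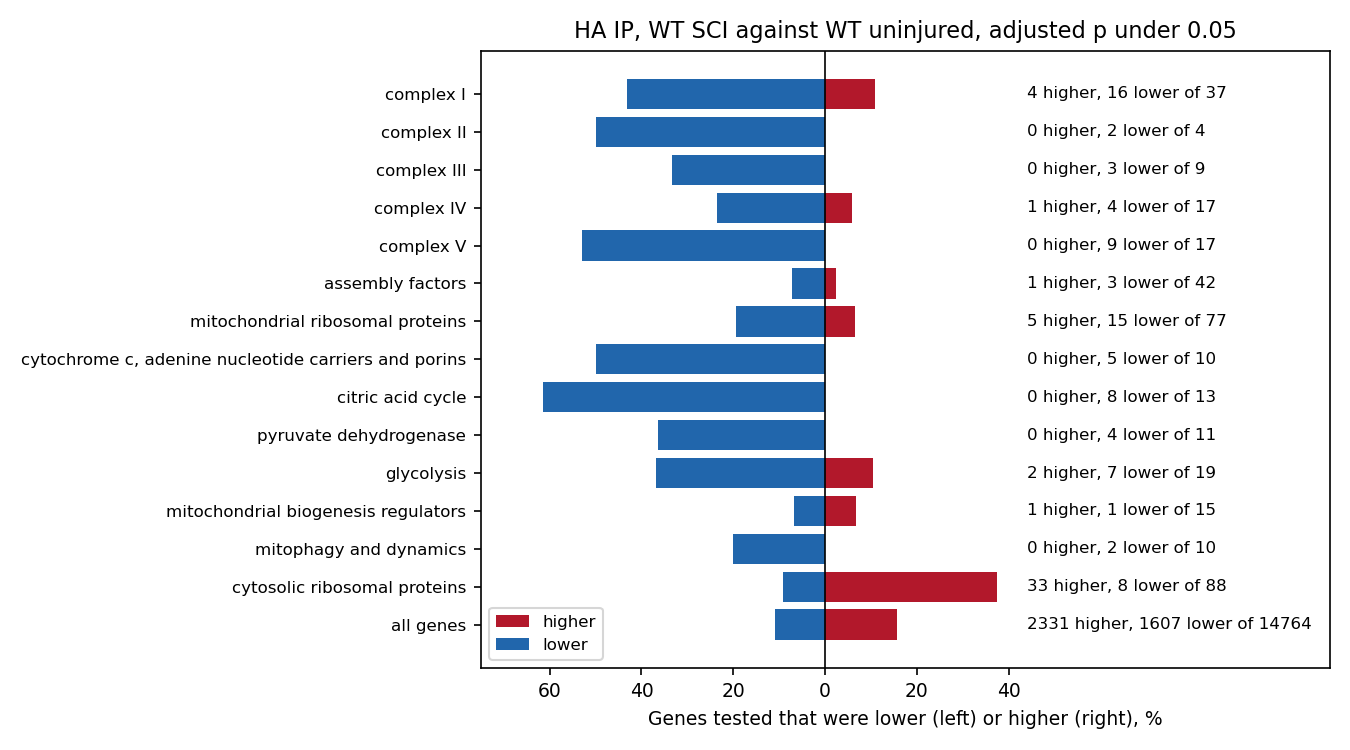
Share of the genes tested in each list that were lower (left) or higher (right) in HA IP of WT SCI against WT uninjured mice, in percent, with the counts printed beside each bar. Complex V (9 of 17 lower), complex II (2 of 4) and the citric acid cycle (8 of 13) stand to the left, and cytosolic ribosomal proteins (33 of 88 higher) to the right.

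Beside these genes, markers of other cell types differed between the same libraries. Microglia and macrophage markers were higher for 11 of 12 genes, with summed levels of 565.7 to 2079 CPM in WT SCI against 13.7 to 33.9 CPM in WT uninjured mice. Oligodendrocyte markers were higher for 7 of 10 (5877 to 8529 against 1448 to 1913 CPM), and all 6 markers of oligodendrocyte precursors rose (482.9 to 657.9 against 158.4 to 275.4 CPM). Neuron markers were lower for 6 of 12 (108.7 to 219.3 against 398.4 to 718 CPM). Of the astrocyte markers 5 of 10 fell and 1 rose (3198 to 5566 against 4118 to 5048 CPM), and the endothelial markers Cdh5, Cldn5 and Pecam1 were at 0 in WT SCI. The part of these markers, and of the Rn45s share, in the levels of the members was not tested.

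In the flow-through, which holds RNA of all cells not bound to tagged ribosomes, injury of WT mice also went with lower respiratory chain levels. Of 80 members tested, 33 fell and 3 rose, against 14.3% lower and 16.7% higher over all genes, and the median log2 fold change was -0.76 over the members and -0.09 over all genes. Atp5b had 94.6, 77.4, 63.5 and 53.5 CPM in WT SCI against 490.9, 649.5, 686.4 and 604.4 CPM in WT uninjured mice and fell by 3.10 (SE 0.31, edgeR adjusted p = 2.13e-08). Cox7b fell by 3.31 and Atp5g1 by 2.81. By complex, 15 of 36 tested members of complex I fell and 1 rose, 1 of 4 of complex II fell, 3 of 9 of complex III, 5 of 14 of complex IV with 2 higher, and 9 of 17 of complex V.

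The 3 members that rose in flow-through were Cox6a2, Cox7a2l and Ndufa2. Cox7a2l had 76.9, 72.0, 101.8 and 83.1 CPM in WT SCI against 22.6, 37.4, 37.4 and 31 CPM in WT uninjured mice, without overlap (log2 fold change 1.38 ± 0.28 SE, edgeR adjusted p = 3.6e-04). In HA IP it was not called (0.50, edgeR adjusted p = 0.294). Ndufa2 rose by 1.29. Cox6a2 rose by 6.15 on counts of 0, 4, 21 and 5 in WT SCI against 0, 3, 2 and 4 in WT uninjured mice, so that animal 9843 held most of them. In this fraction too, Cox6a2 passed the filter on low counts only because of injured libraries. Ndufb4, Ndufb6, Atp5s and Atp5sl, which fell, passed it only because of uninjured libraries. Muscle markers summed to 0 to 24.8 CPM in flow-through of WT SCI and 0 to 0.693 CPM of WT uninjured mice, and their part in the Cox6a2 result was not tested. In this fraction microglia and macrophage markers were higher for 11 of 12 genes, astrocyte markers for 5 of 10, and neuron markers lower for 10 of 12 (376.2 to 806.5 CPM in WT SCI against 2829 to 3509 CPM in WT uninjured mice); their part was not tested.

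Both fractions come from the same animals, so the overlap of their calls is a description. Of the members that fell in WT SCI mice, 26 were the same in both, 76.5% of the 34 in HA IP and 78.8% of the 33 in flow-through. Cox6a2 and Ndufa2 rose in both, 40% of the 5 in HA IP and 66.7% of the 3 in flow-through. By sign alone, 57 of 80 members were lower in both fractions, 11 higher in both and 12 opposite.

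**Figure D5:**
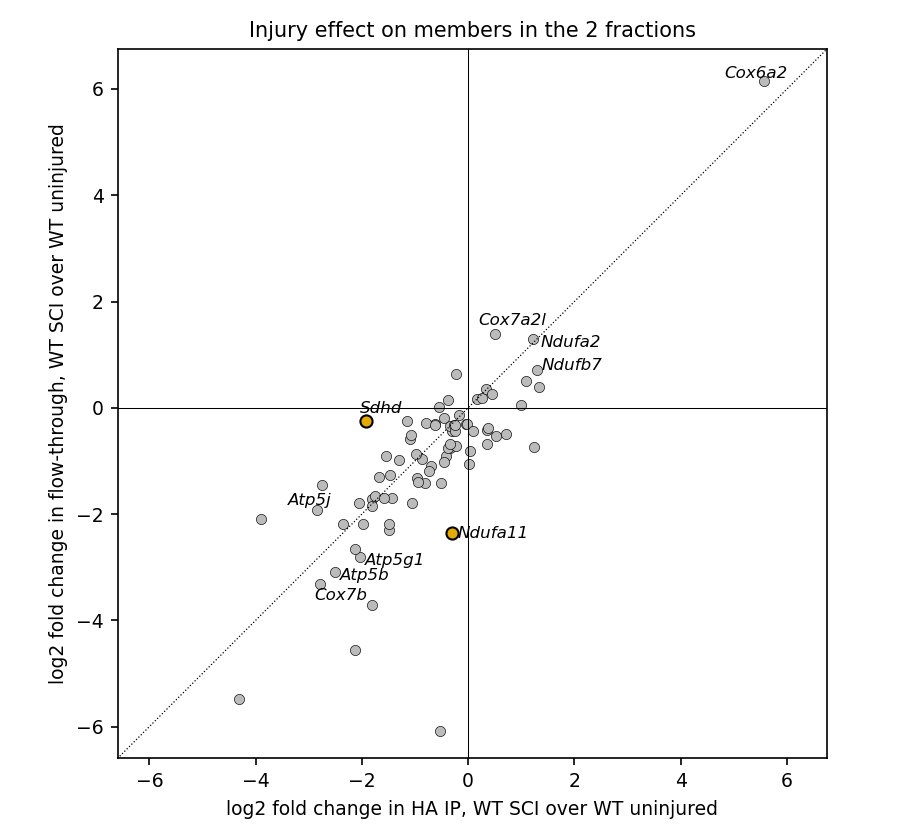
Log2 fold change, WT SCI over WT uninjured, of the members in HA IP (horizontal axis) and flow-through (vertical axis); each point is a gene, and the dotted line marks equal values. Ndufa11 and Sdhd, in yellow, passed the test of the difference, lying at -0.30 and -1.93 in HA IP and at -2.36 and -0.25 in flow-through; points beyond -5 rest on almost no counts.

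A test of the difference itself, the injury effect in HA IP minus that in flow-through, called 1 member higher and 1 lower of 84. Over all 15142 genes 2.67% were higher and 2.03% lower, and the median difference was 0.45 over the members and 0.26 over all genes. Ndufa11, an accessory membrane subunit of complex I, had 21.8, 28.5, 21.6 and 25.9 CPM in HA IP of WT SCI against 22.8, 34.4, 35.9 and 27.8 CPM of WT uninjured mice. In flow-through it had 7.89, 10.8, 6.64 and 1.36 CPM in WT SCI, from 4, 14, 9 and 4 counts, against 26.2, 31.1, 36.8 and 28.0 CPM in WT uninjured mice. Libraries overlapped in HA IP and not in flow-through, and the difference of the effects was 2.23 ± 0.52 SE on the log2 scale (edgeR adjusted p = 0.00817). For Sdhd it ran the other way: HA IP had 7.17, 5.66, 9.42 and 11.1 CPM in WT SCI against 27.9, 33.9, 34.9 and 31.4 CPM in WT uninjured mice, while flow-through had 7.89, 22.4, 17.7 and 24.5 CPM against 20.9, 24.5, 22.9 and 23.4 CPM (difference -1.49 ± 0.44 SE, edgeR adjusted p = 0.0470). Sdhd was lost in 7 of 8 fits that left out an animal, all but that without 9935. With the animal as a replicate block, 9 members were higher and 2 lower, and both Ndufa11 and Sdhd were among them; the same fit called 1934 of 15142 genes, 1158 of them higher.

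Loss of Stat3 was compared next, as STAT3-CKO SCI against WT SCI mice in HA IP. No member of 84 was called in either direction; over all genes 0.596% were higher and 0.562% lower. The median log2 fold change was 0.11 over the members and 0.03 over all genes, and 15 members had an unadjusted p under 0.05, among 2422 of 14764 genes. DESeq2, which called 903 of the 14764 genes, 415 of them higher, called 3 members, all higher: Atp5s (2.69, adjusted p = 0.00312), Atp5j (0.97, adjusted p = 0.0385) and Sdha (0.72, adjusted p = 0.0499). Without WT SCI animal 9874 edgeR called 3 members, and without 9935 or 9596 it called 1. Over all genes it called 182 without 9874, 295 without 9935 and 343 without 9596, against 171 in the full fit.

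Atp5s had the smallest p (log2 fold change 2.77 ± 0.76 SE, edgeR adjusted p = 0.0813). Atp5b stood at 144.5, 233.2 and 247.3 CPM in STAT3-CKO SCI against 139.5, 119.7, 47.9 and 65.8 CPM in WT SCI mice, so every STAT3-CKO library was above every WT one (log2 fold change 1.16 ± 0.32 SE, edgeR adjusted p = 0.0820). Atp5j had 21.4, 17.7 and 33.9 CPM in STAT3-CKO SCI against 12.7, 13.0, 10.3 and 11.9 CPM in WT SCI mice, again without overlap (1.03, edgeR adjusted p = 0.0861). Of 84 members 10 did not overlap between these groups, 6 higher and 4 lower in STAT3-CKO SCI mice. The share over all genes was not counted, so this count is not read as a result about the members. Among the lower ones, Ndufa11 had 20.6, 18.1 and 11.5 CPM in STAT3-CKO SCI against 21.8, 28.5, 21.6 and 25.9 CPM in WT SCI mice. Complex V summed to 739.8 to 883.3 CPM in STAT3-CKO SCI and 478.5 to 762.2 CPM in WT SCI mice. The accessory subunits that rose in WT SCI showed a wide spread in STAT3-CKO SCI mice: Ndufb7 had 47.4, 37.4 and 12.5 CPM and Ndufa2 had 48.8, 34.5 and 16.2 CPM, with animal 270 the lowest for both.

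Among the genes of the 9 pathway lists, whose sizes are given above, 3 were called in this comparison. Over all genes 171 of 14764 were called, so the count is not read as a result about these lists. Slc25a4 averaged 127.2 ± 16.4 CPM in STAT3-CKO SCI and 52.5 ± 19.7 CPM in WT SCI mice (log2 fold change 1.27 ± 0.28 SE, edgeR adjusted p = 0.0333), Slc25a5 averaged 76.2 ± 13.4 CPM in STAT3-CKO SCI and 31.8 ± 6.94 CPM in WT SCI mice (1.26 ± 0.27 SE, edgeR adjusted p = 0.0269), and Ppargc1a averaged 14.0 ± 4.88 CPM in STAT3-CKO SCI and 3.19 ± 2.62 CPM in WT SCI mice (2.02 ± 0.48 SE, edgeR adjusted p = 0.0457). All 3 calls were lost when the fit held only these 2 groups, with adjusted p of 0.170, 0.157 and 0.290. Each was also lost without WT SCI animal 9843 and without STAT3-CKO animal 531 or 270, that of Slc25a4 without 9935 or 186 too, and that of Ppargc1a without 186. Microglia and macrophage markers summed to 798.7 to 1092 CPM in STAT3-CKO SCI and 565.7 to 2079 CPM in WT SCI mice, none called. Oligodendrocyte markers summed to 3572 to 4215 CPM in STAT3-CKO SCI against 5877 to 8529 CPM in WT SCI mice, with 1 of 10 called lower, and Schwann cell markers to 13.0 to 30.5 CPM against 3.58 to 10.5 CPM, with 1 of 5 called higher. Neither pair of ranges overlapped. Of the 10 astrocyte markers 1 was lower (2685 to 3484 CPM in STAT3-CKO SCI against 3198 to 5566 CPM in WT SCI mice). The part of these markers, and of the Rn45s share, in the levels compared here was not tested.

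In flow-through the same comparison called no member of 80, beside 0.0867% of all genes higher and 0.0315% lower. The median log2 fold change was 0.35 over the members and 0.09 over all genes, and 13 members had an unadjusted p under 0.05, among 1665 of 12685 genes. Cox7b came closest, with 9.63, 13.7 and 18.6 CPM in STAT3-CKO SCI against 5.91, 5.42, 5.16 and 3.75 CPM in WT SCI mice, without overlap (1.58 ± 0.40 SE, edgeR adjusted p = 0.113). DESeq2, which called 205 of all genes, called Cox7b higher (adjusted p = 0.0368) and Ndufc2 lower (adjusted p = 0.0488). The test of the genotype effect in HA IP minus that in flow-through called no member of 84, with 6 at an unadjusted p under 0.05, among 932 of 15142 genes; over all genes 0.0066% were higher and 0.0198% lower. Ndufc2 had the smallest p (2.03 ± 0.50 SE, edgeR adjusted p = 0.451), and DESeq2 called 1 member, beside 13 of all genes.

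The uninjured mice served as the reference here too, as they did for WT SCI. Against them, STAT3-CKO SCI mice (n = 3) had fewer called members than WT SCI mice (n = 4) had. The counts were not tested against each other, and the part of group size in them was not tested. In HA IP 16 of 84 members fell and 1 rose (2.08% and 7.7% of all genes), with a median log2 fold change of -0.51 over the members and 0.00 over all genes. By complex, 7 fell in complex I, 1 in II, 1 in III, 3 in IV with 1 higher, and 4 in V. Atp5c1 averaged 21.04 ± 6.86 CPM in STAT3-CKO SCI and 88.8 ± 10.9 CPM in WT uninjured mice (-2.07, edgeR adjusted p = 1.09e-04), Atp5j 24.4 ± 8.46 CPM in STAT3-CKO SCI and 85.5 ± 19.4 CPM in WT uninjured mice (-1.81), and Atp5b 208.3 ± 55.7 CPM in STAT3-CKO SCI and 529.1 ± 49.2 CPM in WT uninjured mice (-1.34 ± 0.33 SE, edgeR adjusted p = 0.0125). Ndufb5, an accessory subunit of complex I, fell by 1.51 and Cox7b by 1.92. Cox6a2 rose by 3.88 on counts of 4, 19 and 85, a call lost without animal 42, 79, 154 or 270, as that of Atp5b was without 186. Muscle markers summed to 0.0701 to 0.156 CPM in HA IP of STAT3-CKO SCI and 0.266 to 0.477 CPM of WT uninjured mice. Their part in the Cox6a2 result was not tested. The number called was 10 without uninjured animal 79, without uninjured animal 65 or without STAT3-CKO animal 186, and 33 in a fit of these 2 groups alone, 32 of them lower. That fit also called more of all genes, 3585 of 14700 against 1444 of 14764 in the fit of 3 groups. Calls over all genes were 875 without animal 79, 906 without 65 and 1034 without 186. Microglia and macrophage markers were higher for 11 of 12 genes (798.7 to 1092 CPM in STAT3-CKO SCI against 13.7 to 33.9 CPM in WT uninjured mice), oligodendrocyte markers for 6 of 10 (3572 to 4215 CPM in STAT3-CKO SCI against 1448 to 1913 CPM in WT uninjured mice) and oligodendrocyte precursor markers for 5 of 6. Astrocyte markers were lower for 3 of 10 (2685 to 3484 CPM in STAT3-CKO SCI against 4118 to 5048 CPM in WT uninjured mice). Their part in the levels of the members was not tested.

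In flow-through 14 of 80 members fell and 2 rose in STAT3-CKO SCI against WT uninjured mice, beside 3.53% and 10.4% of all genes, with a median of -0.36 over the members. Atp5b averaged 124.9 ± 64.1 CPM in STAT3-CKO SCI and 607.8 ± 84.8 CPM in WT uninjured mice (-2.27, edgeR adjusted p = 9.63e-06). Cox7b fell by 1.74 and Atp5j by 1.58, and Cox6a2 rose by 5.15. Muscle markers summed to 0.134 to 0.419 CPM in flow-through of STAT3-CKO SCI and 0 to 0.693 CPM of WT uninjured mice, and their part in the Cox6a2 result was not tested. Cox7a2l was also higher (0.98, edgeR adjusted p = 0.0196), a call lost with the relative log expression scaling, which gave 0.81 (adjusted p = 0.0555), and lost without animal 42, 154, 186 or 531. Without STAT3-CKO animal 186 the number of members called was 9, beside 1383 of 13342 genes, against 1769 of 12685 genes in the full fit. With DESeq2 the members called were 30, 28 of them lower, beside 2480 of 12685 genes, 1358 of them higher. In this fraction 11 of 12 microglia and macrophage markers and 6 of 10 astrocyte markers were higher, and 5 of 12 neuron markers were lower (971.1 to 1415 CPM in STAT3-CKO SCI against 2829 to 3509 CPM in WT uninjured mice); their part was not tested.

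Set against the unbound RNA of the same animals, HA IP RNA was higher for nearly all members that passed the test. In STAT3-CKO SCI mice 9 of 79 members were higher in HA IP and none lower (7.12% and 4.7% of all genes), with medians of 0.56 over the members and 0.03 over all genes; in WT SCI mice 5 of 72 were higher and none lower (4.09% and 2.16%), with medians of 0.66 and 0.07; in WT uninjured mice 38 of 83 were higher and 1 lower (26.4% and 24.2%), with medians of 0.63 and 0.02. HA IP and flow-through libraries of an animal are paired, and with the animal as a replicate block the counts were 28 higher and 2 lower in STAT3-CKO SCI, 11 higher in WT SCI and 69 higher and 2 lower in WT uninjured mice. Over all genes the block called 3105 of 12659 in STAT3-CKO SCI, 1695 of them higher, 1096 of 8466 in WT SCI, 556 of them higher, and 9082 of 14312 in WT uninjured mice, 4701 of them higher. Levels in these fits have a scale of their own in each condition. How the depth of flow-through libraries bears on the counts of calls was not tested.

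In WT uninjured mice Cox7a1, an isoform known from heart and muscle, averaged 16.8 ± 6.79 CPM in HA IP and 2.15 ± 1.48 CPM in flow-through (3.07 ± 0.72 SE, edgeR adjusted p = 0.00442). Cox7b2, an isoform known from testis, had 346 counts over the HA IP libraries and 1 count over the flow-through libraries, so it passed the filter on low counts through HA IP alone, and no fold is given. Sdhc averaged 461.8 ± 85.8 CPM in HA IP and 154.6 ± 20.2 CPM in flow-through (1.58), and Uqcrfs1 255.6 ± 63.2 CPM in HA IP and 92.1 ± 10.5 CPM in flow-through (1.47). Atp5sl, which is no ATP synthase subunit, was the 1 member lower in HA IP (-0.70), not called without animal 79 or 65. In STAT3-CKO SCI mice Cox7a1 (2.63), Cox6b2 (2.48) and Ndufc2 (2.41) had the largest called differences, of which Cox7a1 and Cox6b2 were lost without animal 531 or 270, and in WT SCI mice Uqcrfs1 (2.24 ± 0.41 SE, edgeR adjusted p = 0.00233) and Ndufa11 (2.14), the last lost without any 1 of the 4 animals. Leaving out 1 animal lowered the count to 1 or 2 in WT SCI mice, whichever it was, to 1 in STAT3-CKO SCI mice without animal 531, and to 25 in WT uninjured mice without animal 154. Calls over all genes also dropped, to 166 to 292 from 529 in WT SCI mice. In STAT3-CKO SCI mice without animal 531 they dropped to 292 from 1496.

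Levels of different genes can be compared only per length, here as CPM per kilobase of exon in HA IP of WT uninjured mice. Atp5b was the highest of the named members at 276.2 ± 25.7, followed by Cox4i1 at 210.2 ± 55.9, Cox6a1 at 200.4 ± 47.6, Cox8a at 192.5 ± 48.4, Uqcr10 at 171.0 ± 47.7 and Atp5g3 at 169.4 ± 38.7; neighbours from Cox4i1 on lay within 1 SD of each other. The common isoforms exceeded the tissue-restricted ones: Cox4i1 stood above Cox4i2 (0.442), Cox6b1 (73.9) above Cox6b2 (3.79), Cox7a2 (69.6) above Cox7a1 (6.13), and Ndufa4 (112.5) above Ndufa4l2 (0.162), a gene known to be induced by hypoxia. Of the 3 membrane-ring genes, Atp5g3 stood above Atp5g1 (10.8) and Atp5g2 (10.2). These values depend on the exon length, which joins the exons of all listed transcripts. It was 4912 bases for Atp5g1, 724 for Atp5g3 and 731 for Atp5g2. Before division by length, Atp5g3 had 86.8 to 147.5 CPM, Atp5g1 41.0 to 60.7 CPM and Atp5g2 5.18 to 8.72 CPM in the same libraries. In WT SCI mice Atp5b was at 48.7 ± 22.6, below Cox4i1 at 250.2 ± 32.5, Uqcr10 at 168.5 ± 56.8 and Cox6a1 at 149.3 ± 59.5. Atp5g genes, and other members with processed copies in the genome, may share reads with near-identical sequences, so their split is uncertain.

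Features that the rule of selection did not use were then read. Transcript GC content had a median of 49.0% over the 34 members lower in HA IP of WT SCI mice, 51.7% over the 5 higher and 54.1% over the 44 not called. Across 83 members log2 fold change and GC content had a Pearson correlation of 0.367 (Spearman 0.295), beside 0.169 (Spearman 0.24) across 13507 genes. In flow-through the Pearson correlation was 0.106 across 79 members, beside 0.0492 across 11863 genes. These are descriptions across genes that share the same libraries and are not independent. Promoter windows of 250 bases before to 50 after the start were listed for 66 of the 85 members. The NRF1 core was in 15.2% of them against 3.93% of 17491 protein-coding genes, the ETS core in 24.2% against 12.9%, and the YY1 core in 13.6% against 3.57%. Of the windows of members that fell, 1 of 28 held the NRF1 core, and of members not called 9 of 35 did. For the ETS core these counts were 6 of 28 and 9 of 35, and for the YY1 core 3 of 28 and 5 of 35. The splits were not tested.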

How the data were processed

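RNA-seq libraries were made from 5 ng of HA IP or flow-through RNA with the Ovation amplification kit and 10 PCR cycles, per the labels' protocols. The authors deposited whole-number read counts per gene symbol, 1 table per fraction. CASAVA 1.8.2, edgeR and build mm10 appear in the submitters' processing notes without their role. For the aligner, the annotation and the strand setting the sources used here name nothing, so reads of genes that overlap could be counted together. The tables also held 146 per-sample value columns that were not used.

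Groups came from the labels. The members and lists were chosen with earlier results of these data known. Counts were fitted in R 4.3.3 with edgeR 4.0.16 (filterByExpr, TMM, quasi-likelihood test, two-sided), the 3 groups of a fraction together, and p-values were adjusted by Benjamini-Hochberg over all genes tested and called under 0.05. HA IP was set against flow-through within each condition, and interactions were fitted over all 22 libraries. The SE is the fold change divided by the square root of F. Scripts were tested on simulated data with known changes. Alternatives were relative log expression scaling, DESeq2 1.42.0, no filter, removal of the rows Rn45s, Lars2 and Mir6236, thinning to equal depth, the 2 groups alone, leaving out each animal, the animal as a block, and all libraries in 1 fit.

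Libraries that bear the same animal number come from the same mouse, and their deviations from the group means correlated at 0.319 to 0.679 over 15142 genes. P-values of comparisons within a fraction measure the spread between animals. Those of HA IP against flow-through and of the interactions treat both libraries of an animal as independent, except in the fits with the animal as a block. Library totals, Rn45s shares and floors (3 counts) are given with the results, and intervals from counts cover counting error only. Genes were named by rule: the highest members of each complex, the smallest p per comparison and direction, the largest differences between fractions, the tissue isoforms, and the leading called genes of 9 pathway lists; 1 member that the rule took is not reported here. Coordinates are GENCODE release 21 for mouse, which matched 84 members, and promoters are from RefSeq.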

Additional observations from a re-analysis of the deposited data

Results flagged for a closer look

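Of 163 groups of 4 libraries examined, 12 held 1 library that stood far from the other 3. Chance alone flags about 1 in 20 groups of normally distributed values. That rate does not hold where the other 3 libraries are at 0, since any count is then flagged. In HA IP of WT SCI mice, Cox6b2 was at 22.48 CPM in animal 9935 (69 counts) against 0.872 to 3.22 CPM in the others, Sdhc at 58.94 CPM in animal 9843 against 81.1 to 85.5 CPM, Cox4i2 at 0.2262 CPM in animal 9874 on 2 counts and Ndufa4l2 at 1.046 CPM in animal 9843 on 6 counts, each against 0 in the other 3.

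In flow-through of WT SCI mice, Atp5g1 was at 30.97 CPM in animal 9874 (40 counts) against 3.75 to 7.89 CPM, Cox7a2 at 35.48 CPM (18 counts) in animal 9935 against 13.2 to 16.7 CPM, and Ndufa4l2 at 0.7377 CPM in animal 9843 on 1 count against 0. The summed level of complex I was 535.9 CPM in animal 9596 against 508.3 to 511 CPM in the others, a flag that comes with a very narrow group.

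In flow-through of WT uninjured mice, animal 42 had 41.08 CPM of Atp5c1 against 49.9 to 50.7 CPM and 17.61 CPM of Cox7a2 against 39.7 to 44.2 CPM, and animal 79 had 0.4767 CPM of Ndufa4l2 on 11 counts and 0.04334 CPM of Cox7b2 on 1 count.

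A pair of members differed in their injury effect between HA IP and flow-through by the interaction test. Ndufa11 differed by 2.235 on the log2 scale and Sdhd by -1.487, HA IP minus flow-through.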

How the results depend on the processing

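For members in WT SCI against WT uninjured mice, the number called stayed within 1.5 times of 39 in HA IP and 36 in flow-through under relative log expression (RLE) scaling, DESeq2, no filter, ribosomal rows removed, thinning and the 2 groups alone, and was 30 to 39 in both fractions when 1 library was left out; 27 and 28 of these calls held in every such fit. For STAT3-CKO SCI against WT SCI, where 0 were called, no filter gave 1 and DESeq2 3 in HA IP, and 1 and 2 in flow-through, with 0 to 3 and 0 to 1 when 1 library was left out. For STAT3-CKO SCI against WT uninjured mice the counts were 33 in HA IP and 27 in flow-through with the 2 groups alone, 30 in flow-through with DESeq2, and 10 to 14 and 9 to 21 with 1 library left out. HA IP against flow-through gave 30, 11 and 71 in STAT3-CKO SCI, WT SCI and WT uninjured mice with the animal as a replicate block, which kept all 9, 5 and 39 calls of the unpaired fits. In WT SCI it gave 8 with no filter, 13 with DESeq2 and 30 with all 22 libraries in 1 fit, and in WT uninjured mice 15 with all 22; with 1 animal left out the ranges were 1 to 7, 1 to 2 and 25 to 54 in that order. The injury interaction called 1 member with no filter, 0 after thinning, 11 with the replicate block and 1 to 2 with 1 animal left out; the genotype interaction called 1 with DESeq2 and 0 in every fit without 1 animal. Pairing changed no other call. RLE scaling moved the median of all genes by -0.20 in the injury interaction, by -0.12 in flow-through of WT SCI and by -0.16 in flow-through of STAT3-CKO SCI against WT uninjured mice, and the share of all calls that were higher to 38.9% against 56.8%, 47.7% against 53.9% and 62.6% against 74.7%. The summed complex I level in flow-through, WT SCI over WT uninjured, was 0.628, and 0.581 with RLE, 0.604 without ribosomal rows, 0.663 after thinning and 0.560 to 0.672 with 1 library left out. Summed complex V in flow-through was 1.16 after thinning against 1.24 for STAT3-CKO SCI over WT SCI (1.17 to 1.28), and 0.417 with RLE and 0.436 without ribosomal rows against 0.467 over WT uninjured mice (0.412 to 0.495), and complex IV, WT SCI over WT uninjured, was 0.642 to 0.808. Among single genes in HA IP of WT SCI against WT uninjured mice, none of them called, the sign turned for Cox6b2 (-0.48 to 1.61, lowest without 9935), Cox8b (-1.99 to 0.80, lowest without 9874), Ndufa4l2 (-7.15 to 1.26, lowest without 9843, from almost no counts) and Uqcr10 (-0.27 to 0.10, among them 0.07 without 79). The cause of these shifts was not tested. WT SCI libraries had the fewest counts outside ribosomal rows, so low members are limited by depth there.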
